A study of Oryza sativa with 6 samples.

Results

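Wall-associated, lectin and cysteine-rich receptor kinases are plant receptor-like kinases that carry a sensing domain outside the cell, a single membrane-spanning stretch and a serine/threonine kinase inside it. They were taken from the deposited table by the wording of its Swiss-Prot annotation, and 73 of its 2995 genes were members. That wording used no expression values, but the authors had called every listed gene as differing, and earlier results of these data were known. The members comprised 27 genes annotated as wall-associated receptor kinases (WAK), 17 as L-type lectin receptor kinases, 10 as G-type lectin S-receptor-like kinases, 14 as cysteine-rich receptor-like kinases (CRK), 3 as FERONIA and 2 as leaf rust 10 locus receptor-like kinases (LRK10-like). No listed gene was annotated as a proline-rich receptor-like kinase. Leaving out leucine-rich repeat (LRR) and Xa21 rows, as the selection required, removed 0 genes.

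The RNA came from rice leaves (Oryza sativa) of 2 lines, WYG7 and PIF4v3m, with 3 libraries each, and both lines were grown in pots under fluctuating light combined with drought. WYG7 (Wuyungeng 7) is the wild type of the series. PIF4v3m was taken to be the study's PIL13v3m knocking-down line, a Cas9-edited plant in the WYG7 background that lacks 1 nucleotide at the v3 SNP of the promoter of OsPIL13, which encodes a phytochrome-interacting factor, a light-regulated bHLH transcription factor. The labels do not state this match. The labels give leaves of 3-week-old plants. The study took its transcriptome samples after the combined stress, which its methods start in older plants, so the age at sampling is not settled. The study describes 1 line edited at the v3 SNP and calls its replicates independent. Whether the libraries of a line came from separate plants is not given in the sources used here. The p-values therefore measure the spread between these libraries and not between edited lines. No unstressed plants were in the series, and the comparison asks which transcripts differed between the lines under the combined stress.

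Receptor kinases of these families sit in the plasma membrane and read the state of the cell wall and the space outside the cell. In Arabidopsis, WAK proteins bind pectin, the acidic polysaccharide of the wall, and FERONIA binds wall polymers and RALF peptides, small secreted peptides that raise the pH outside the cell. Lectin receptor kinases carry domains that resemble carbohydrate-binding plant lectins, CRK proteins carry a repeated cysteine motif outside the cell, and many members of both groups are known from responses to pathogens and to oxidative stress. In rice many genes of these families lie in tandem gene clusters.

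Transcript levels of 66 of the 73 receptor kinase genes were lower in PIF4v3m than in WYG7, and those of 7 were higher (limma on log2(FPKM + 1), two-sided, Benjamini-Hochberg adjusted p under 0.05). FPKM is fragments scaled by transcript length and by the mapped fragments of the library, so a level can be set beside that of another gene. The background of the table was 54.1% of listed genes lower and 45.8% higher. Among the members the share that was lower came to 90.4%. The deposited table lists only genes that the authors had themselves called as up or down, so that 99.9% of listed genes passed and a p-value is not independent evidence that a member changed. The study reports more genes as up or down than the table lists, so further members of these families may have differed without being listed. The counts of lower and higher members therefore cover the listed genes only. How many further members were expressed but did not differ is also unknown.

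The difference is given in 2 ways below. The ratio of the mean FPKM of the lines is called the fold, and the difference on the log2(FPKM + 1) scale, which carries the test, understates the change of genes with low FPKM. The median fold of the members was 3.29-fold lower in PIF4v3m, and that of all listed genes was 2.18-fold lower. On the log2(FPKM + 1) scale the medians were -0.91 and -0.56. These medians mix both directions, so they also reflect the larger share of members that fell. Among only the genes that fell, the median fold was 3.88 in the members and 3.15 in all listed genes. Their median log2(FPKM + 1) differences were -0.95 and -1.11, so on that scale the members that fell did so by less. By that scale 30 of the 73 members were over 2-fold lower, against a background of 1016 of the 2995 listed genes (33.9%). Over 2-fold higher were 3 of the 73 members, against 797 of the 2995 listed genes (26.6%). In all 73 members the 3 values of one line did not overlap the 3 of the other, which held for 99.4% of listed genes. Since the samples are whole leaves, fewer cells that express a gene and less RNA per cell cannot be told apart.

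**Figure D1:**
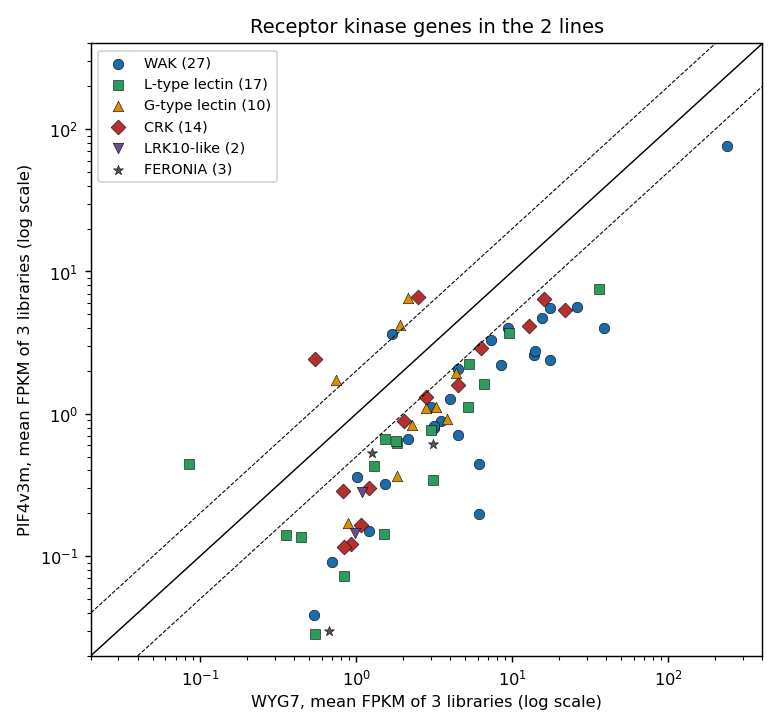
Mean FPKM of 3 libraries in WYG7 (horizontal, log scale) and in PIF4v3m (vertical, log scale) for each of the 73 receptor kinase genes, with the family as colour and symbol. The solid line marks equal levels and the dashed lines 2-fold differences; 66 genes lie below the solid line and 7 above it, and the gene at the far right, Oryza_sativa_newGene_4117, stood at 238 FPKM in WYG7 and 76.1 FPKM in PIF4v3m.

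WAK transcripts made up most of the receptor kinase signal. Summed over the 27 WAK genes, the level was 634, 338 and 387 FPKM in the 3 WYG7 libraries and 115, 133 and 133 FPKM in the 3 PIF4v3m libraries, 3.57-fold lower in PIF4v3m. WYG7 replicate 1 was the highest library, and the lowest WYG7 library was still above each PIF4v3m library. Of the 27 genes, 26 were lower and 1 was higher, with a median log2 difference of -1.21.

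The most abundant member was Oryza_sativa_newGene_4117, a gene model added by the authors, annotated as WAK5 and matched in their description column to Os11g0690733. It is singled out here after its values were seen. Its level was 342, 182 and 190 FPKM in WYG7 and 66.5, 77.9 and 83.8 FPKM in PIF4v3m, 3.13-fold lower (log2 difference -1.58, SE 0.23, adjusted p = 0.00022 by limma). This gene alone supplied between 34.8% and 40.0% of the summed FPKM of all members in each of the 6 libraries, so the WAK sum leans on it. Without it, the other 26 WAK genes summed to 292, 155 and 197 FPKM in WYG7 and to 48.7, 54.9 and 48.8 FPKM in PIF4v3m.

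The largest WAK decrease on the log2(FPKM + 1) scale was that of LOC4335436, annotated as WAK5. Its level was 52.8, 27.9 and 34.7 FPKM in WYG7 and 3.55, 4.58 and 3.93 FPKM in PIF4v3m. The lines stood far apart, the mean being 38.5 ± 12.9 against 4.02 ± 0.521 FPKM (SD, n = 3 libraries per line), 9.57-fold lower, and the log2 difference of -2.93 (SE 0.21, adjusted p = 6.71e-06 by limma) was number 49 in the order of all decreases in the table. LOC4340086, also annotated as WAK5, was at 21.7, 13.3 and 17.5 FPKM in WYG7 and at 2.22, 2.60 and 2.38 FPKM in PIF4v3m, 7.28-fold lower.

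The largest fold among all members belonged to Oryza_sativa_newGene_3132, annotated as WAK2. It was at 8.64, 3.93 and 5.90 FPKM in WYG7 and at 0.160, 0.264 and 0.174 FPKM in PIF4v3m, 30.9-fold lower and close to the bottom of the scale in the edited line (log2 difference -2.52, SE 0.23, adjusted p = 1.76e-05 by limma). LOC4330063 (WAK5) was at 10.1, 3.96 and 4.29 FPKM in WYG7 against 0.372, 0.536 and 0.418 FPKM in PIF4v3m, 13.8-fold lower. In that gene WYG7 replicate 1 was more than double each of the other WYG7 libraries, and without it the fold was 9.34.

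The remaining WAK genes that fell differed mainly in level. The 16 WAK genes outside the naming rule were all lower, by 2.16-fold to 13.9-fold, from WYG7 means between 0.537 and 238 FPKM. By annotation, 10 of 10 genes matched to WAK5 and 10 of 11 matched to WAK2 were lower, as were 2 of 2 matched to WAK1. Sequence similarity places a rice gene beside an Arabidopsis WAK in this column and does not show that it has the same function.

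**Figure D2:**
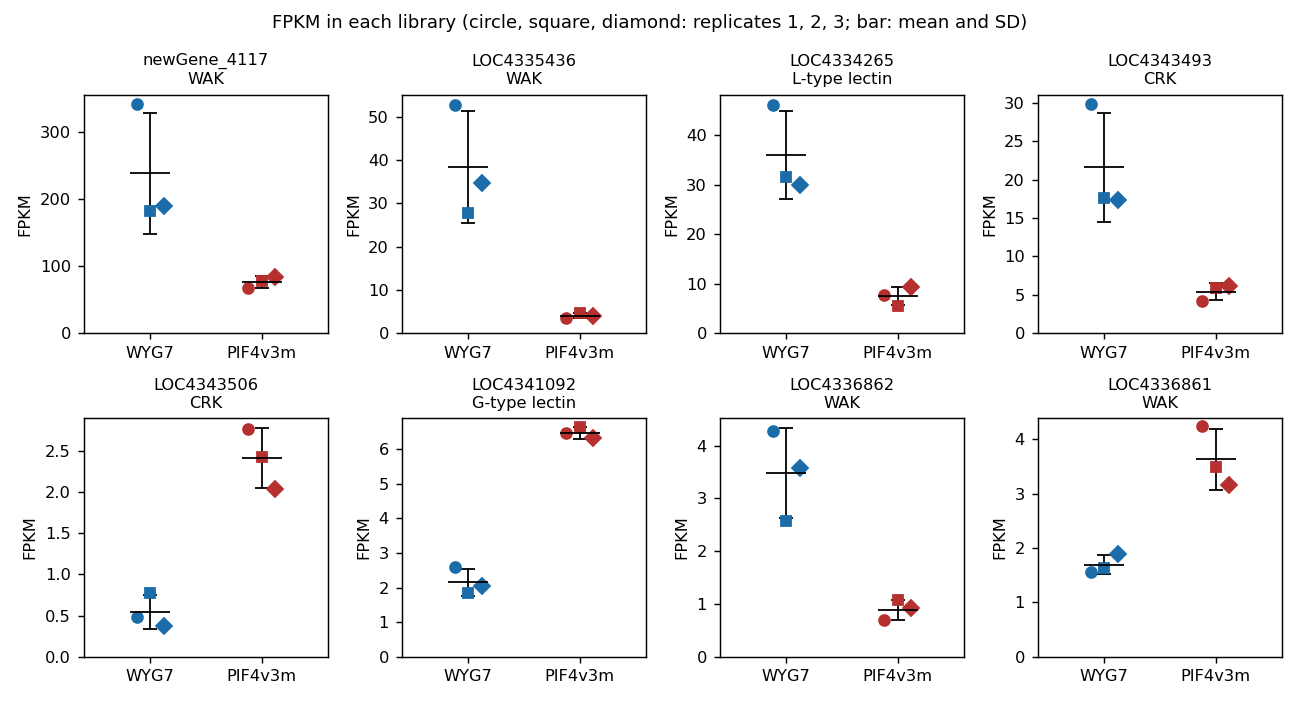
FPKM (vertical, linear from 0) of 8 receptor kinase genes in each library of WYG7 (blue) and PIF4v3m (red); circle, square and diamond are replicates 1, 2 and 3, and the bars give mean and SD. Genes named by rule or for their level are shown: 5 were lower in PIF4v3m, among them LOC4335436 (38.5 ± 12.9 to 4.02 ± 0.521 FPKM), and 3 were higher, among them LOC4341092 (2.15 ± 0.384 to 6.46 ± 0.168 FPKM), and in no panel do the lines overlap.

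L-type lectin receptor kinases were lower as a family too. Their summed level was 101, 67.3 and 68.4 FPKM in WYG7 and 19.7, 18.3 and 23.9 FPKM in PIF4v3m, 3.83-fold lower. Of 17 genes 16 were lower and 1 was higher, with a median log2 difference of -0.80. All 13 genes annotated as SIT2 were lower. SIT2 takes its name from salt intolerance, and the related kinase SIT1 of rice is known to pass salt signals on to MAP kinases.

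The SIT2-annotated gene LOC4334265 was the most abundant L-type lectin gene in both lines. It was at 46.2, 31.7 and 30.0 FPKM in WYG7 and at 7.71, 5.53 and 9.30 FPKM in PIF4v3m, 4.79-fold lower (log2 difference -2.12, SE 0.21, adjusted p = 2.70e-05 by limma). The groups were well apart, with the lowest WYG7 library above 3 times the highest PIF4v3m library. LOC4342332 (SIT2) was at 4.74, 2.59 and 1.97 FPKM in WYG7 and at 0.271, 0.475 and 0.286 FPKM in PIF4v3m, 9.02-fold lower. LOC4343699 (SIT2) was at 6.28, 4.34 and 5.06 FPKM against 1.25, 1.18 and 0.892 FPKM, 4.72-fold lower.

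The 3 genes annotated as receptor kinase IX.1 were all lower and were expressed at low levels (they fall outside the naming rule and were singled out after their values were seen). Their folds were among the largest of the members, 10.6 for LOC4343654, 11.4 for LOC4335391 and 19.3 for LOC4352755, but the PIF4v3m means were between 0.0284 and 0.143 FPKM, where 1 library moves a ratio. Without PIF4v3m replicate 2 the fold of LOC4352755 was 42.1, and without PIF4v3m replicate 3 that of LOC4343654 was 17.3. The log2(FPKM + 1) differences of the 3 genes ran from -1.12 to -0.57.

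Transcripts of CRK genes were lower in 12 of 14 cases and higher in 2, with a median log2 difference of -0.76. Their summed level was 96.3, 62.4 and 63.2 FPKM in WYG7 and 31.8, 33.3 and 32.9 FPKM in PIF4v3m, 2.26-fold lower. The PIF4v3m libraries were within a few percent of one another, whereas WYG7 replicate 1 stood above the others of that line.

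Of these, LOC4343493 (CRK6) was the highest in WYG7. It was at 29.8, 17.6 and 17.4 FPKM in WYG7 and at 4.11, 5.89 and 6.15 FPKM in PIF4v3m, 4.01-fold lower (log2 difference -1.80, SE 0.22, adjusted p = 9.14e-05 by limma). LOC4343475 (CRK6) was more even within the lines, at 18.1, 14.4 and 15.5 FPKM in WYG7 and 6.67, 6.97 and 5.66 FPKM in PIF4v3m, 2.48-fold lower. LOC4335588 (CRK10) was at 19.2, 9.82 and 9.48 FPKM against 3.85, 4.66 and 3.91 FPKM, 3.10-fold lower.

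G-type lectin genes were the most evenly split family. Of 10 genes, 7 were lower and 3 were higher, and the summed level was 28.2, 21.89 and 21.99 FPKM in WYG7 and 19.2, 19.0 and 18.3 FPKM in PIF4v3m, 1.27-fold lower. Whether the split of this family differs from that of the others was not tested. Its median log2 difference was -0.85.

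The G-type gene with the largest decrease, LOC107276737 (annotated by the Arabidopsis locus At2g19130), was steady within each line. It was at 3.63, 3.90 and 3.92 FPKM in WYG7 and at 0.800, 0.994 and 0.985 FPKM in PIF4v3m, 4.12-fold lower (log2 difference -1.32, SE 0.12, adjusted p = 1.68e-05 by limma). LOC4335153 (LECRK4) was at 4.31, 2.48 and 2.92 FPKM against 1.02, 1.15 and 1.17 FPKM, 2.91-fold lower. LOC107275903 (At2g19130) was at 3.07, 0.877 and 1.51 FPKM in WYG7 and 0.375, 0.409 and 0.319 FPKM in PIF4v3m, and its fold of 4.95 became 3.25 without WYG7 replicate 1.

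All 3 genes annotated as FERONIA and both LRK10-like genes were lower. FERONIA is known in Arabidopsis for its part in cell growth, pollen tube reception and immune signalling. LOC4338398 was at 3.72, 2.79 and 2.86 FPKM in WYG7 and at 0.450, 0.724 and 0.673 FPKM in PIF4v3m, 5.08-fold lower (log2 difference -1.35, SE 0.14, adjusted p = 3.26e-05 by limma). LOC4325600 was at 0.996, 1.32 and 1.49 FPKM against 0.353, 0.611 and 0.641 FPKM, 2.37-fold lower.

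The third FERONIA-annotated gene, LOC4338290, was close to the lower end of the scale. It was at 0.713, 0.981 and 0.331 FPKM in WYG7 and at 0.0245, 0 and 0.0644 FPKM in PIF4v3m. Its fold of 22.8 ranged from 15.2 to 55.1 when PIF4v3m replicate 2 or 3 was left out, and its log2(FPKM + 1) difference was -0.68 (SE 0.14). This gene is 1 of 3 members with a library at 0, and no member was at 0 in all libraries of a line.

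The LRK10-like genes take their name from a wheat locus for leaf rust resistance. LOC4325681 was at 1.31, 0.892 and 0.749 FPKM in WYG7 and at 0.180, 0.0571 and 0.201 FPKM in PIF4v3m, 6.74-fold lower. LOC4339529 was at 1.39, 0.841 and 1.03 FPKM against 0.318, 0.285 and 0.245 FPKM, 3.85-fold lower. In both genes the lowest WYG7 library was above double the highest PIF4v3m library.

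**Figure D3:**
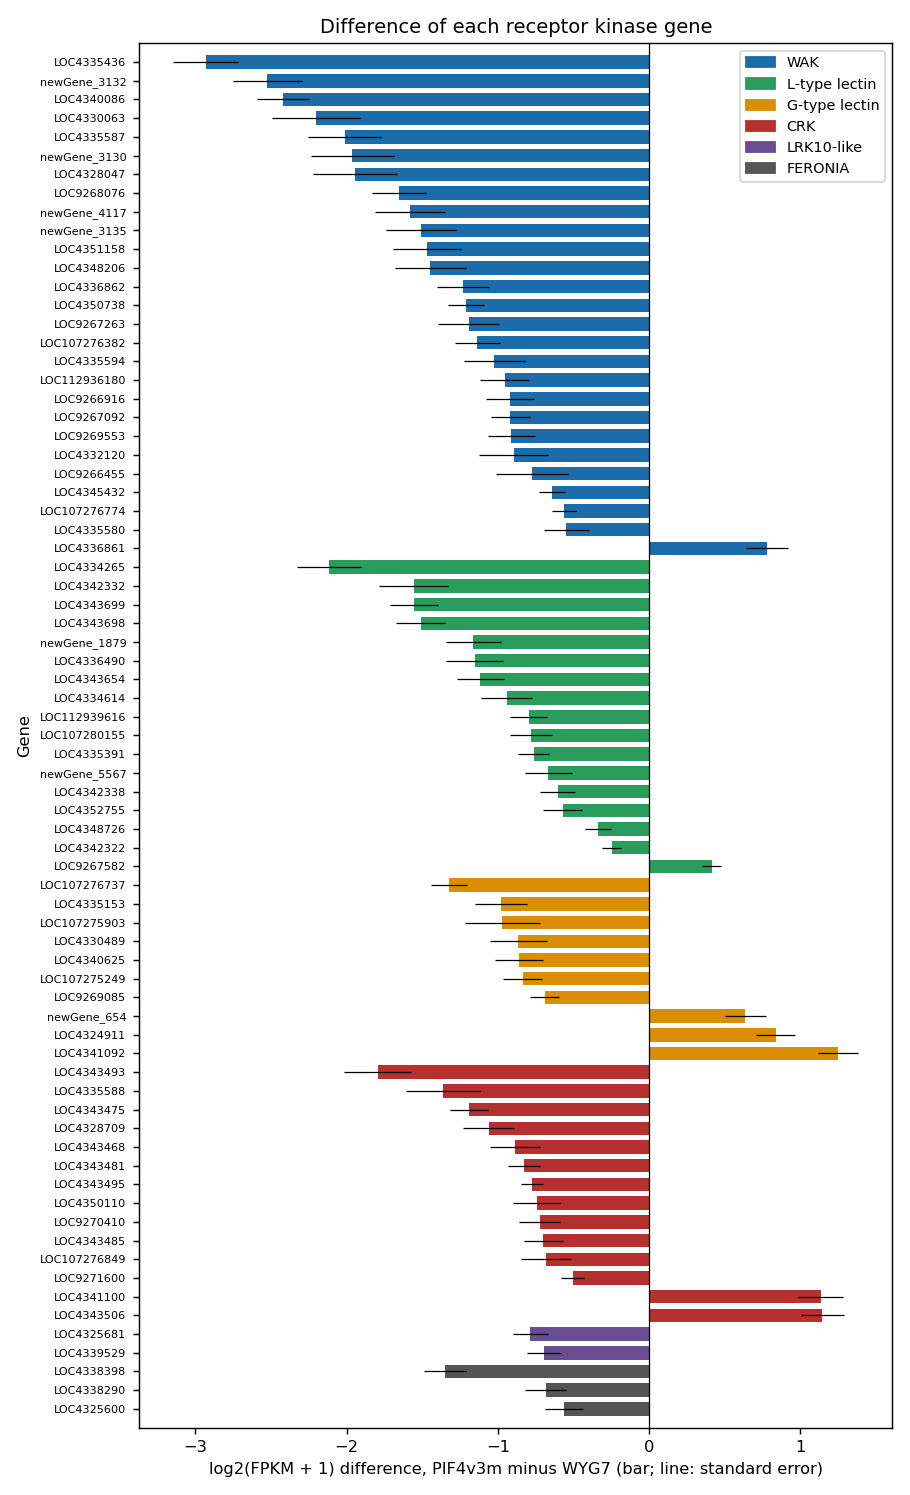
Difference between the lines on the log2(FPKM + 1) scale, PIF4v3m minus WYG7, for each of the 73 receptor kinase genes (horizontal bars, coloured by family; lines are standard errors from limma; names beginning newGene are the authors' added models). Bars to the left of 0 are lower in PIF4v3m; they reach -2.93 for LOC4335436, and the 7 bars to the right of 0 reach 1.25 for LOC4341092.

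The 7 members that were higher in PIF4v3m came from 4 families: 3 G-type lectin, 2 CRK, 1 L-type lectin and 1 WAK gene. Their folds were between 2.15 and 5.23. None of them reached 10 FPKM in either line, whereas 12 of the members that fell were at 10 FPKM or more in WYG7, of which 1, Oryza_sativa_newGene_4117, stayed at or above 10 FPKM in PIF4v3m.

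The largest increase was that of LOC4341092, a G-type lectin kinase annotated as SD2-5. It was at 2.58, 1.84 and 2.03 FPKM in WYG7 and at 6.45, 6.64 and 6.30 FPKM in PIF4v3m, 3.01-fold higher (log2 difference 1.25, SE 0.13, adjusted p = 3.82e-05 by limma). The other SD2-5-annotated gene, LOC4340625, named here after its values were seen, moved the opposite way, from 2.79 ± 0.374 to 1.10 ± 0.339 FPKM.

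LOC4343506 (CRK6) was at 0.480, 0.770 and 0.376 FPKM in WYG7 and at 2.76, 2.43 and 2.04 FPKM in PIF4v3m, 4.44-fold higher (log2 difference 1.15, SE 0.14, adjusted p = 8.10e-05 by limma). LOC4341100 (CRK10) was at 3.00, 2.14 and 2.30 FPKM against 6.72, 5.79 and 7.38 FPKM, 2.67-fold higher. Each has relatives with the same annotation that fell: of 5 CRK6-annotated and 5 CRK10-annotated genes, 4 of each were lower.

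The remaining increases were smaller on the log2(FPKM + 1) scale. LOC4324911 (At2g19130) was at 1.87, 1.83 and 2.01 FPKM in WYG7 and 4.82, 3.80 and 3.996 FPKM in PIF4v3m, 2.21-fold higher. Oryza_sativa_newGene_654 (B120) was at 0.766, 0.705 and 0.767 FPKM against 2.06, 1.92 and 1.25 FPKM, 2.33-fold higher. LOC9267582 (L-type lectin receptor kinase S.5), which falls outside the naming rule and is given to complete the 7, was at 0.115, 0.0755 and 0.0650 FPKM against 0.426, 0.503 and 0.409 FPKM, 5.23-fold higher at levels under 1 FPKM in every library.

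Position along the chromosomes was taken from the RefSeq gene order, in which 62 of the 73 genes were found. Chromosome 7 held 13 members (12 lower, 1 higher), chromosome 4 held 12 (10 lower, 2 higher) and chromosome 2 held 8, all lower. Of the members, 17 lay within 5 genes of another member, in 8 groups. In 7 of those groups every member was lower, beside 66 of all 73 members. The groups held 2 or 3 members each, and whether neighbours moved alike more often than other members was not tested.

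On chromosome 7, 8 CRK genes lay within a stretch of 45 protein-coding genes. Of these 45, 9 were listed in the table, and the 1 that was no CRK, LOC4343492, is annotated as a glucan endo-1,3-beta-glucosidase. From one end to LOC4343495, 7 CRK genes were lower, with folds from 2.17 for LOC4343468 to 7.61 for LOC4343495. The CRK gene at the other end was LOC4343506, which was higher. LOC4343495 was even within each line, at 1.00, 0.899 and 0.863 FPKM in WYG7 and at 0.124, 0.127 and 0.112 FPKM in PIF4v3m.

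Opposite directions also met in an adjacent pair of WAK2-annotated genes on chromosome 4. LOC4336862 was at 4.28, 2.57 and 3.58 FPKM in WYG7 and at 0.692, 1.07 and 0.917 FPKM in PIF4v3m, 3.90-fold lower (log2 difference -1.23, SE 0.17). Its neighbour LOC4336861 was at 1.55, 1.63 and 1.89 FPKM in WYG7 and at 4.25, 3.50 and 3.15 FPKM in PIF4v3m, 2.15-fold higher (log2 difference 0.78, SE 0.14). In WYG7 the first gene was above the second in each library, and in PIF4v3m the order was reversed in each library.

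Elsewhere on chromosome 4, LOC9269553 (WAK2), LOC4335587 (WAK2) and LOC4335588 (CRK10) lay within 4 genes and were all lower. LOC4335587 was at 19.6, 9.53 and 12.4 FPKM in WYG7 and at 2.29, 3.24 and 2.17 FPKM in PIF4v3m, 5.39-fold lower. On chromosome 6 both CRK10-annotated LOC4341100 and SD2-5-annotated LOC4341092 were higher and lay 10 genes apart. That distance is beyond the limit of 5 genes used for neighbours, and the pair was picked after its values were seen. Neighbouring genes of these families can be near-identical copies, and how reads that match several copies were assigned is not given in the sources used here, so levels of close copies are uncertain.

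**Figure D4:**
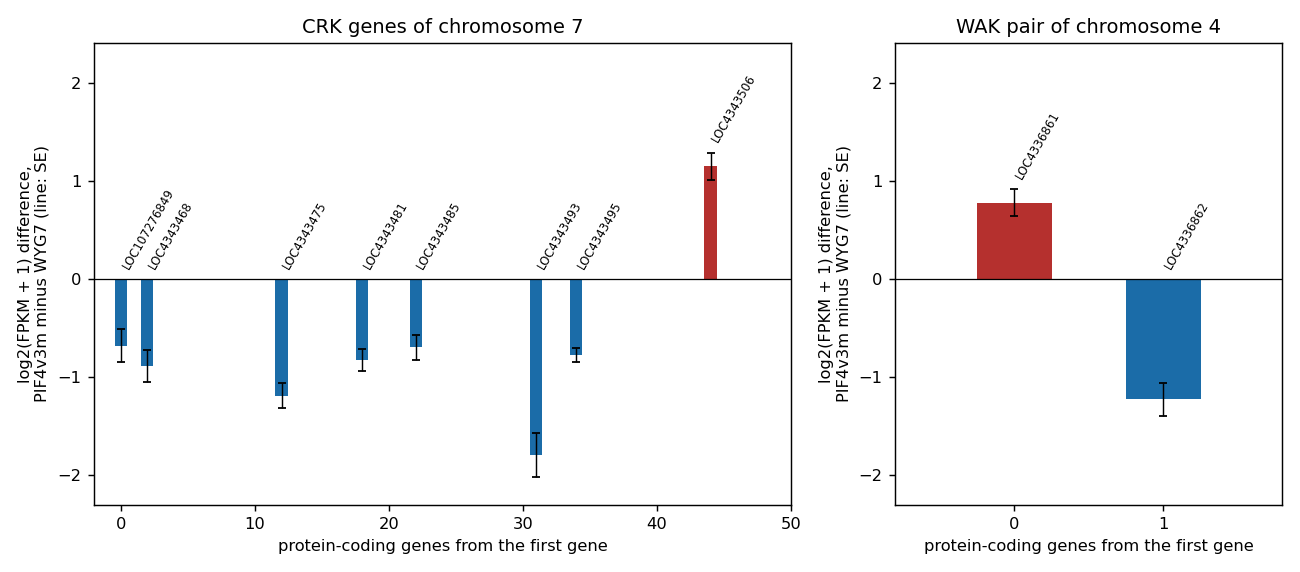
Difference on the log2(FPKM + 1) scale, PIF4v3m minus WYG7 (vertical; bars with standard errors from limma), of the 8 CRK genes of chromosome 7 and of the adjacent WAK pair of chromosome 4, placed by the number of protein-coding genes from the first gene in the RefSeq order (horizontal). In the left panel 7 bars are below 0 and LOC4343506 is at 1.15; in the right panel LOC4336861 is at 0.78 and LOC4336862 at -1.23.

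Annotation columns that were not used in choosing the members were compared with their families. The description from the NR protein database put 57 of the 73 genes in one of these families, and in all 57 it gave the same family as Swiss-Prot. It was searched with the same wording, so a gene described in other words counted as not placed. The number within a family could differ, LOC4336861 being WAK2 by Swiss-Prot and WAK5 by NR. The Pfam column, which holds 1 domain per gene, gave a protein kinase domain for 53 members and a legume lectin domain for 15. It gave a galacturonan-binding domain of WAK type for 4 and, for the CRK gene LOC4343495, a domain labelled salt stress response/antifungal. Of the members, 13 were under 1 FPKM in both lines.

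WYG7 replicate 1 stood above the other libraries of its line in these genes. It was the highest WYG7 library in 57 of 73 members (78.1%), against 47.7% of all listed genes. The median ratio of its FPKM to the mean of the other WYG7 libraries was 1.49 in the members and 1.06 in all listed genes, and it was 1.72 in the WAK family. Among the members that fell it was highest in 54 of 66, and among those that rose in 3 of 7.

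The sizes were computed again without that library. Leaving it out cannot turn a direction, since the values of the lines did not overlap in any member. The median fold was then 3.00 in place of 3.29, and the summed level was 2.60-fold lower in place of 3.18-fold. The WAK sum was 2.86-fold and the L-type lectin sum 3.29-fold lower without it.

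**Figure D5:**
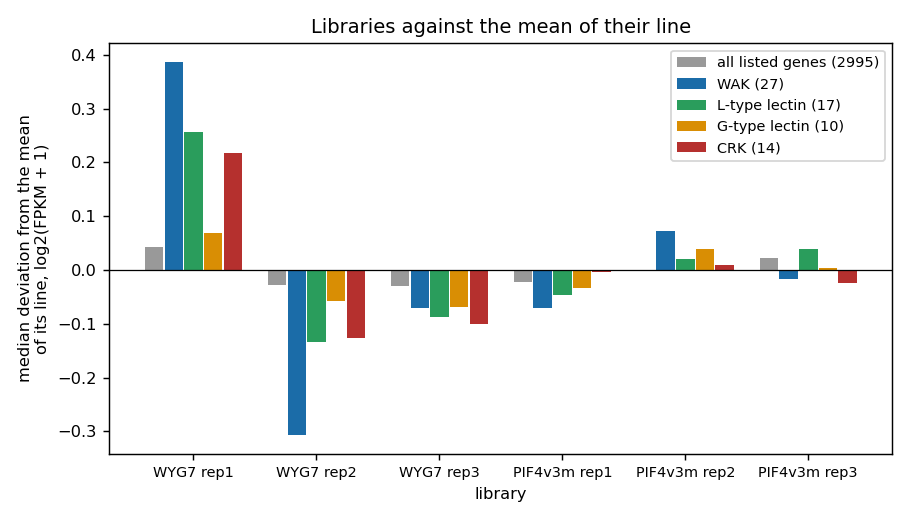
Median deviation of each library from the mean of its line on the log2(FPKM + 1) scale (vertical), for all 2995 listed genes and for the 4 larger receptor kinase families (coloured bars), in each of the 6 libraries (horizontal). WYG7 replicate 1 stands at 0.39 in WAK genes, 0.26 in L-type lectin genes and 0.22 in CRK genes, and at 0.04 over all listed genes.

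Other genes of kinds that take part in receptor kinase signalling were read from lists matched on the Swiss-Prot text. Whether these genes act with the members was not tested. The single genes named from the lists were picked after their values were seen. Of the RALF peptides, the ligands of FERONIA, 2 were listed, both annotated as RALF23, and they moved in opposite directions. LOC4350457 was at 1.18, 1.61 and 1.48 FPKM in WYG7 and at 0, 0.0948 and 0.0812 FPKM in PIF4v3m. LOC4330272 was at 2.43, 2.85 and 3.72 FPKM in WYG7 and at 9.99, 8.18 and 7.03 FPKM in PIF4v3m.

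The counts below stand beside a background of 54.1% of listed genes lower and 45.8% higher, and most of these lists are small and near it. Where a list holds both directions, a small median falls between genes that rose and genes that fell and does not mean unchanged genes. Receptor-like cytoplasmic kinases, which receptors phosphorylate, numbered 12 with 6 higher and 6 lower (median log2 difference -0.07). MAP kinases of all tiers numbered 6, with 3 in each direction (median -0.14). Of 2 exchange factors that switch on ROP GTPases, LOC4325510 was lower and LOC4336643 higher. Of 5 calcium-dependent protein kinases 3 were higher and 2 lower (median 0.85).

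All 4 respiratory burst oxidase homologs (RBOH), the membrane enzymes that make superoxide outside the cell, were lower, with a median log2 difference of -1.33. LOC4326027 (RBOH B) was at 61.5, 66.3 and 63.2 FPKM in WYG7 and at 17.3, 17.2 and 17.8 FPKM in PIF4v3m, so that WYG7 replicate 1 was the lowest of its line here. LOC4345742 (RBOH E) was at 26.9, 9.42 and 13.7 FPKM against 1.55, 1.296 and 1.22 FPKM.

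Of 10 listed enzymes and inhibitors of pectin turnover, whose substrate WAK proteins bind, 8 were lower and 2 higher (median -1.02). The 2 listed pollen markers were lower as well, LOC4335712 being at 7.48, 8.003 and 3.41 FPKM in WYG7 and at 0.708, 0.891 and 0.477 FPKM in PIF4v3m. WYG7 replicate 3 was the lowest WYG7 library in both pollen markers and in 6 of the 8 pectin genes that fell, against 20 of the 66 receptor kinase genes that fell. Of the other genes that fell, it was lowest in 2 of 2 calcium-dependent kinases, 1 of 1 ROP exchange factors and 5 of 10 WRKY factors. The counts were 2 of 6 receptor-like cytoplasmic kinases, 0 of 4 respiratory burst oxidases, 0 of 3 MAP kinases and 0 of 1 RALF peptides. Among the leaf photosynthesis genes that fell, WYG7 replicate 3 was lowest in 3 of 5. The share over all listed genes that fell was not counted, so none of these counts can be called unusual. The part of pollen RNA in the pectin list and in these other lists was not tested. Of 17 WRKY transcription factors, many of which act in defence, 10 were lower and 7 higher (median -0.75), also near the background. The largest decrease among them was that of LOC4347069 (WRKY76), at 33.4, 19.2 and 25.3 FPKM in WYG7 and 0.198, 0.0238 and 1.20 FPKM in PIF4v3m. No SERK co-receptor and no chitin receptor was listed. As a further comparison, 38 listed LRR receptor kinases divided into 24 lower and 14 higher, with a median log2 difference of -0.45, and whether this split differs from that of the 73 members was not tested.

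Marker genes of the leaf and of other organs were checked in the same libraries. Of the 11 listed photosynthesis genes 6 were higher and 5 lower in PIF4v3m, and their summed FPKM was 16879 to 17552 in WYG7 and 13666 to 17063 in PIF4v3m. That sum joins large changes in opposite directions and does not show a steady level of these genes. LOC4346803 (chlorophyll a-b binding protein 1) had a mean of 5380 FPKM in WYG7 and 791 FPKM in PIF4v3m. LOC4351224 (ribulose bisphosphate carboxylase/oxygenase activase) had a mean of 2889 FPKM in WYG7 and 7673 FPKM in PIF4v3m. Within that sum LOC4342395 (photosystem II 10 kDa polypeptide) was at 117, 116 and 93.2 FPKM in WYG7 and at 0.912, 1.54 and 1.26 FPKM in PIF4v3m. Of 2 pollen markers, both were lower, with a summed level of 3.69 to 8.50 FPKM in WYG7 and 0.524 to 0.891 FPKM in PIF4v3m. The 1 root marker listed, LOC107276110 (Casparian strip membrane protein), was at 5.41 to 6.79 FPKM in WYG7 and 19.2 to 25.4 FPKM in PIF4v3m, and no seed storage gene was listed. The part of these differences in the receptor kinase results was not tested.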

How the data were processed

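Leaf RNA of 3 WYG7 and 3 PIF4v3m samples was sequenced by the authors. The authors deposited an FPKM for every listed gene in each library. Read counts were not used here. The authors name STAR, Cufflinks and DESeq2 in their methods. The notes that the submitters gave on processing list HISAT2 2.0, StringTie 1.3.0, Bowtie 0.12.2 and a mouse build (mm8) instead, so the tools behind the FPKM are not settled. The table also holds the authors' fold changes, adjusted p-values and direction calls, which were not used; all 2995 rows carry a call. No per-library column was left out (0). The reads per library that the study lists were not used here, and no read counts or transcript lengths were set beside the FPKM, so no counting interval is given for low values.

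Values were compared as log2(FPKM + 1), pseudocount 1, for genes with a mean FPKM above 0.01, with limma 3.58.1 (trend, no covariate, all 6 libraries) in R 4.3.3, and p-values were adjusted over all 2995 genes. The code was tested on simulated data. Members and companion lists were chosen with earlier results of these data known. Named genes were, in each family, up to 3 increases and 3 decreases of largest size among members with at least 1 FPKM in one line, all members of families of 5 or fewer, and members within 5 genes of one another. Of these 37 genes the text gives those that show each pattern. Gene order and chromosome came from RefSeq assembly ASM3414082v1, whose build may differ from that of the authors, so no coordinates are given. Alternatives were pseudocounts of 0.1 and 0.01, other filters and scalings, limma without trend, with library weights or with a replicate block, each library left out, an adjusted p under 0.01 and, added after the data were seen, other ways of choosing members. Libraries with the same number were not treated as pairs. Figures and tables used Python 3.11.15, pandas 2.3.3 and matplotlib 3.10.9.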

Additional observations from a re-analysis of the deposited data

How the results depend on the processing

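Since the lines did not overlap in any member, of the alternatives only the scalings could turn a direction, and under both all 73 kept it. Quantile normalization and median scaling moved the median log2 difference of all listed genes by 0.21 and 0.28, and the member medians were then -0.66 and -0.67 against -0.33 and -0.41 for all listed genes. The size threshold depended on the scale: with a pseudocount of 0.1, 64 members were over 2-fold lower and 7 over 2-fold higher, with 0.01 these counts were 66 and 7, and under quantile normalization and median scaling 21 and 20 were over 2-fold lower and 5 over 2-fold higher in each. Keeping genes with a mean FPKM above 1, which tests fewer genes, left 10 L-type lectin, 7 CRK, 1 FERONIA and 0 LRK10-like genes lower, and 0 L-type lectin genes higher. Choosing members by the NR description instead (added after the data were seen) gave 62 genes, 58 lower and 4 higher. Under quantile normalization 63 members were called lower in place of 66, among them 25 WAK and 14 L-type lectin genes. For the 37 named members the alternatives were counted without the filter at 1 FPKM and the 0.01 threshold. Among these 37 members 517 of 518 alternative values stayed on the same side of the threshold. The exception was the low L-type lectin gene LOC4342322, which under quantile normalization differed by -0.07 (SE 0.07, limma adjusted p = 0.304). With 1 library left out, 66 members were lower and 7 higher each time, and 25 to 36 were over 2-fold lower, the fewest without WYG7 replicate 1. The replicate numbers did not pair the libraries (correlations of same-numbered deviations -0.068, 0.003 and -0.097); with the number as a replicate block, 66 members were lower and 7 higher, 30 and 3 of them by over 2-fold. The fold of 5 members moved by over 1.5 times when 1 library was left out, among them LOC107276774 (WAK5), from 13.9 to 27.0 without PIF4v3m replicate 1.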

Other observations

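Some listed receptor kinases resemble the families described above by domain or by NR description, but their Swiss-Prot text did not match the selection. They were chosen after their values were seen and are given as values only. Of 6 genes annotated as ZmPK1, an S-domain receptor kinase first described in maize, 5 were lower in PIF4v3m and 1 was higher. On chromosome 1, LOC4326332 was at 0.252, 0.190 and 0.155 FPKM in WYG7 and at 2.05, 1.42 and 1.11 FPKM in PIF4v3m, 7.67-fold higher, while the next gene, LOC4326333, was at 2.07, 1.34 and 1.01 FPKM against 0.414, 0.550 and 0.376 FPKM, 3.30-fold lower. The following gene, LOC107277300, was 2.70-fold lower. Both SD1-8-annotated genes were under 2 FPKM in each library: LOC4333240 was 8.49-fold lower and LOC4339237 was 6.33-fold higher.

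All 3 genes annotated as Lr10, a rust resistance kinase of wheat, were lower, among them LOC4326089 at 16.4, 11.6 and 11.6 FPKM in WYG7 and 5.72, 5.76 and 5.11 FPKM in PIF4v3m. LOC107275259, annotated as HERK 1, a relative of FERONIA, was at 22.8, 15.5 and 14.0 FPKM in WYG7 and 7.81, 6.52 and 7.70 FPKM in PIF4v3m. LOC4333240 and 4 more genes are placed in these families by the NR description alone, and these 5 were all lower. The highest in WYG7 was LOC4325517, described as the proline-rich receptor-like kinase PERK8, at 54.4, 63.1 and 61.3 FPKM in WYG7 and 27.9, 26.9 and 28.1 FPKM in PIF4v3m, 2.16-fold lower. LOC9271391, described as WAK1, was at 45.5, 36.8 and 39.8 FPKM against 9.02, 9.18 and 7.74 FPKM, 4.71-fold lower, and LOC9271506, also described as WAK1, lies between the WAK genes LOC4330063 and LOC9267263 on chromosome 2 and was 5.48-fold lower.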
